A study of Mus musculus with 11 samples.

Results

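The 57 genes described here encode proteins that make ribosomes in the nucleolus: RNA polymerase I, which transcribes the ribosomal RNA precursor, and the factors that modify, cut and assemble that RNA into subunits. They are 57 of the 21957 genes counted in mouse CD8 T cells, chosen by function from a list of symbols, and all 57 were matched to an Ensembl identifier. By role, 6 belong to RNA polymerase I and its initiation factors and 7 act around the ribosomal DNA and the nascent transcript. A further 4 and 4 are the proteins of the box C/D and box H/ACA particles that guide RNA modification, 16 assemble the 40S subunit and 20 the 60S subunit.

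All libraries came from primed OT1 cells, which are CD8 T cells of mice transgenic for a T cell receptor that recognises ovalbumin. Stimulated cells had received beads with antibodies against CD3 and CD28 for 2 h, and unstimulated cells had been left resting. Both were treated with cycloheximide, which stalls translating ribosomes, for 10 min before harvest. RNA was counted in 3 stimulated and 3 unstimulated libraries, and ribosome footprints, the stretches of mRNA that ribosomes protect from nuclease, in 2 stimulated (replicates 2 and 3) and 3 unstimulated libraries. A stimulated footprint replicate 1 was not analysed here. The labels do not give the age or number of the mice, nor whether the replicates of a group were grown or taken separately. The p-values therefore reflect the spread between these libraries alone, and that spread may be technical. The series asks how mRNA and its translation change in memory CD8 T cells soon after activation.

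Ribosome production begins in the nucleolus, where RNA polymerase I reads the repeated ribosomal RNA genes. Small nucleolar particles then direct methylation and pseudouridylation of the precursor, and a large complex called the small subunit processome folds and cuts its 5′ part while other factors build the large subunit around the rest. The roles given below for assembly factors are known in large part from budding yeast. Resting lymphocytes have small nucleoli, and activated ones enlarge them before they divide. The transcription factor MYC is a known activator of these genes in growing cells, and it binds DNA at the E-box CACGTG.

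RefSeq promoter windows of the GRCm38.p6 assembly, each covering 250 bases before to 50 after a gene's start, were available for 50 of the 57 genes. Bop1, Fbl, Npm1, Rrp12, Rrs1, Tcof1 and Wdr36 had no entry. Motifs were searched on both strands. The E-box CACGTG, a palindrome, was in 11 of the 50 windows (22%), against 20.7% of 92 windows of other ribosome biogenesis genes, 12.5% of 6825 windows of genes with at least 10 CPM (counts scaled to library size) in RNA and 8.09% of all 27025 windows. The motif CCGGAAGT, read as ACTTCCGG on the other strand and bound by ETS family factors, was in 16 of the 50 (32.0%), against 26.1%, 11.8% and 4.31% of the same sets. The 10-base NRF-1 motif was in none of the 50, against 4.35%, 2.81% and 1.07%. Either of E-box and ETS motif was in 23 windows and both in 4, where they did not overlap. A match describes letters in a window and is not a measured binding site. The following stretches show E-boxes, in capitals, before the starts of 3 genes, printed 5′ to 3′ on the gene's strand.
Rrn3, chr16:13780629-13780678, plus strand: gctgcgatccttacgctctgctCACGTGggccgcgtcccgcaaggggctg
Utp18, chr11:93885767-93885808, minus strand: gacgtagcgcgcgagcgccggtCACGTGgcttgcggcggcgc
Nop2, chr6:125131801-125131850, plus strand: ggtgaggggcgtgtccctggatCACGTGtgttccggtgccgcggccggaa

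Stretches that hold the ETS motif, again in capitals, are shown for a gene of RNA polymerase I, both H/ACA genes with a match before the start, and a 40S and a 60S assembly gene.
Polr1c, chr17:46248058-46248109, minus strand: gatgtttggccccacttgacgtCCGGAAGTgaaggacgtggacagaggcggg
Gar1, chr3:129831411-129831462, minus strand: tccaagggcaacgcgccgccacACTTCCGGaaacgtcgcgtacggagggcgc
Nhp2, chr11:51619728-51619772, plus strand: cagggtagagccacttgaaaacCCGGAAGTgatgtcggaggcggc
Heatr1, chr13:12395337-12395374, plus strand: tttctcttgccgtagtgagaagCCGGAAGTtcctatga
Nip7, chr8:107056752-107056803, plus strand: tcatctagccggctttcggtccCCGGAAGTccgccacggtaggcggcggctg

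Noc4l and Ddx51, a 40S and a 60S assembly gene, are transcribed away from each other from starts only 49 bases apart, and the stretch between them holds the cyclic AMP response element TGACGTCA, in capitals. This motif was searched after the sequence had been seen. It was in 2 of the 50 windows (4.0%), which are the windows of these genes and share it, against 4.07% of genes with at least 10 CPM and 2.03% of all windows.
Noc4l to Ddx51, chr5:110653383-110653431, plus strand: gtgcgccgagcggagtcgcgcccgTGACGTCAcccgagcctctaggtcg

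RNA libraries held 21658263 to 39346699 counts and footprint libraries 11136 to 23641, 85433 footprints in all. Levels are given in CPM after TMM scaling, and a log2 change is the stimulated minus the unstimulated value, printed with its standard error where one is given. They are not corrected for coding length, so levels of different genes were not compared. Defining T cell genes summed to 2042 to 3272 CPM in stimulated and 2833 to 3199 CPM in unstimulated libraries, while the sums of 6 B cell, 7 myeloid, 3 NK cell and 4 erythroid genes were at most 15.2, 11.1, 2.82 and 3.93 CPM in stimulated and 13.7, 7.70, 1.52 and 5.42 CPM in unstimulated libraries. Of 3 CD4 T cell genes (18.9 to 24.8 CPM summed in stimulated and 11.8 to 12.2 CPM in unstimulated libraries), only the activation gene Cd40lg rose, with Cd4 and Foxp3 not called, and of the erythroid genes Alas2 fell (1.54, 1.48 and 1.46 CPM in stimulated and 4.56, 4.16 and 4.20 CPM in unstimulated libraries). In bulk samples, fewer cells of a type and less RNA per cell cannot be told apart. A set of 4 genes, Gm10800, Gm10801, Gm20594 and Lars2, took 25.01, 22.5 and 12.9% of the counts in stimulated RNA replicates 1, 2 and 3, against 4.09, 14.9 and 5.14% in unstimulated ones. The order of the stimulated libraries in these counts is the reverse of their order in ribosome biogenesis genes, and unstimulated replicate 2, with the most of these counts, was lowest in most of the 57, as described below.

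RNA of the ribosome biogenesis genes was higher in stimulated cells. Of the 57, 32 rose, none fell and 25 were not called by edgeR's quasi-likelihood test at an adjusted p under 0.05, with a background of 3.58% of all 18886 genes tested called higher and 4.68% called lower. All 57 had a log2 change above 0 (all but Tcof1 with RLE scaling, DESeq2 or without unstimulated replicate 2), against 67.2% of all genes tested, and 14 rose at least 2-fold, against 1.73%. In 55 of 57 every stimulated library lay above every unstimulated one, against 15.4% of genes tested, and the exceptions were Tcof1 and Rrp12. Their median log2 change was 0.75, against 0.39 over all genes tested and -0.09 over the 8494 genes with at least 10 CPM, a level that all 57 genes reached. The background shares above are over all genes tested, many of them below 10 CPM. They are not given for genes of at least 10 CPM in this fit. Most changes were moderate, with 54 genes above the median of all genes tested but only 2 in its top 10%. Together the genes took 1.01, 1.08 and 1.24% of counts in the stimulated libraries, against 0.772, 0.675 and 0.758% in the unstimulated ones, and the groups did not overlap. Their summed level was 11915 ± 2687 CPM in stimulated and 6930.3 ± 348 CPM in unstimulated cells (SD, n = 3 each), a 1.69-fold difference (log2 0.76 ± 0.19).

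**Figure D1:**
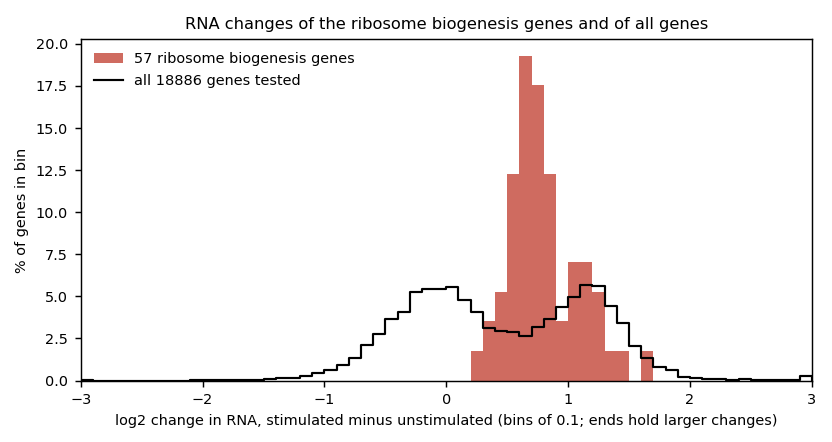
Distribution of the log2 change in RNA, stimulated minus unstimulated, in bins of 0.1, as a percentage of the 57 ribosome biogenesis genes (red) and of all 18886 genes tested (black line). All 57 genes lie to the right of 0, between 0.22 and 1.63, and the background spreads on both sides of 0, with a peak near 0 and another to its right.

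The libraries of a group did not agree on the size of the difference. Stimulated replicate 3 was highest and replicate 1 lowest in all 57 genes, against 46.2% of all genes tested, and unstimulated replicate 2 was lowest in 52 of 57, against 40%. Both orders were also seen in each of the 9 T cell genes, so they are not particular to the 57. Cd8a, for example, had 491, 576 and 806 CPM in stimulated and 670, 562 and 654 CPM in unstimulated replicates 1, 2 and 3. The shares among genes with at least 10 CPM are not given here. The median coefficient of variation of the 57 genes was 23.9% among stimulated and 5.84% among unstimulated libraries. When libraries were scaled on genes with at least 10 CPM only, it was 4.53% among stimulated and 2.71% among unstimulated libraries, all 57 genes were called higher (background 16.7%) and the smallest change was 0.31 ± 0.04, for Tcof1. All 57 were also called when only the 8494 genes with at least 10 CPM were tested (background 36.9%). That setting takes its scaling factors from these genes too, so it is not a separate check. The calls therefore depended on the libraries and the scaling. They numbered 10, 6 and 46 without stimulated replicate 1, 2 or 3, where 1.87, 1.48 and 5.05% of all genes tested were called higher. They numbered 15, 46 and 9 without unstimulated replicate 1, 2 or 3, where 2.25, 35.6 and 1.55% of all genes were called higher. These shares are also the background of the counts by role given below for the same left-out libraries. Only Polr1b, Rrp9, Rrs1, Nle1, Nop16 and Noc3l were called in each of these 6 fits. Without the 3 libraries with the most counts in the 4 genes above, stimulated replicates 1 and 2 and unstimulated replicate 2, 56 were called, in a background of 10.8%, with the lone stimulated library assumed to vary like the others. The distance between the median of the 57 genes and that of the genes with at least 10 CPM was 0.81 to 0.85 in every setting tried. Scaling moves all genes nearly alike, so this distance could hardly change with it and is no check of the scaling. The distance to the median of all genes tested was 0.15 without a filter and 0.73 with a filter on the mean count.

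**Figure D2:**
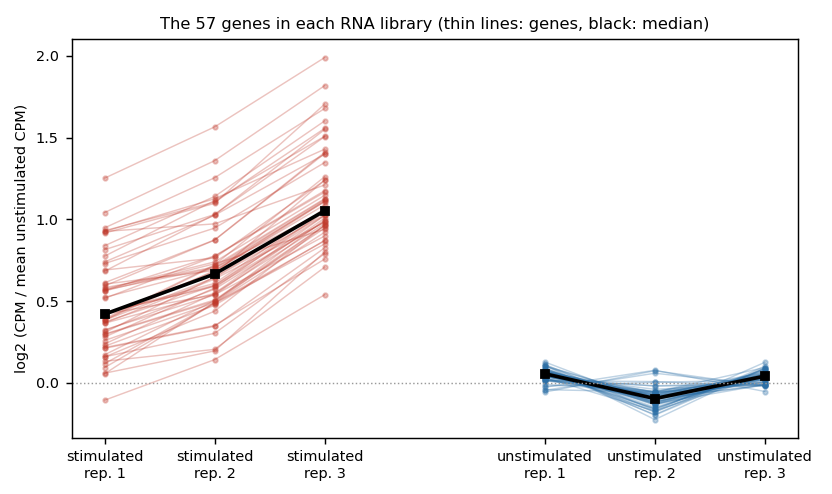
RNA level of each of the 57 genes in each library as log2 of its CPM over its mean unstimulated CPM. Thin lines link the values of a gene, black squares give the median, and the order of replicates has no meaning. Stimulated replicate 3 has the highest values and the 3 unstimulated libraries lie close to 0.

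Among the 6 genes of RNA polymerase I and its initiation factors, the 2 subunit genes Polr1b and Polr1e rose and the other 4 were not called. Polr1b (chromosome 2, 129100970 to 129128060), which encodes one of the large catalytic subunits, had 142, 176 and 237 CPM in stimulated libraries, against 63.5, 52.0 and 63.3 CPM in unstimulated ones. Each stimulated value was more than any unstimulated one, and the 3.10-fold rise (log2 1.63 ± 0.22, edgeR adjusted p = 0.00118) was the largest of the 57 genes. Polr1e (chromosome 4, 45018609 to 45034279), a subunit that aids initiation, had 34.3, 43.2 and 57.5 CPM in stimulated libraries, against 25.5, 27.4 and 26.0 CPM in unstimulated libraries. It rose 1.71-fold (log2 0.78 ± 0.19, edgeR adjusted p = 0.0259), with no overlap between the groups. The genes not called were Polr1a (0.65), the largest subunit, Polr1c (0.52), a subunit shared with RNA polymerase III, Rrn3 (0.49), the factor that brings the polymerase to the promoter, and Ubtf (0.37), which binds the ribosomal DNA. The 6 genes summed to 647, 756 and 1027 CPM in stimulated and 516, 458 and 506 CPM in unstimulated libraries. Polr1e lost its call without stimulated replicate 1 or 2 (edgeR adjusted p = 0.126 and 0.263) or unstimulated replicate 1 or 3 (0.0858 and 0.197), and 3 genes were called without stimulated replicate 3 or unstimulated replicate 2.

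Of the 7 genes whose proteins act around the ribosomal DNA and nascent transcript, 4 rose and 3 were not called. Nolc1 (chromosome 19, 46075847 to 46085543), a chaperone of small nucleolar particles, had 229, 279 and 362 CPM in stimulated libraries, against 140.2, 135 and 136 CPM in unstimulated ones. Ncl (chromosome 1, 86344719 to 86359455), which encodes nucleolin, a protein that binds the precursor RNA and histones, had 588, 607 and 715 CPM in stimulated libraries, against 297, 325 and 305 CPM in unstimulated libraries. In both genes every stimulated value lay above every unstimulated one. Nolc1 rose 2.11-fold (log2 1.08 ± 0.21, edgeR adjusted p = 0.00810) and Ncl 2.06-fold (log2 1.04 ± 0.19, edgeR adjusted p = 0.00631). Gnl3 (1.03), which encodes the GTP-binding protein nucleostemin, and Ddx21 (0.84), an RNA helicase of the nucleolus, also rose. Mybbp1a (0.70), a nucleolar protein named for its binding to MYB, Npm1 (0.63), the histone chaperone nucleophosmin, and Tcof1 (0.22), which encodes treacle, were not called. Tcof1 had 133, 158 and 208 CPM in stimulated libraries, against 147, 133 and 148 CPM in unstimulated libraries, so its lowest stimulated value lay below all unstimulated ones. Its change was -0.01 with RLE scaling, -0.11 with DESeq2 and -0.10 without unstimulated replicate 2. Calls numbered 3 without unstimulated replicate 1 (Ddx21 lost, adjusted p = 0.151), 6 without stimulated replicate 3 or unstimulated replicate 2, and 0 without any of the other 3 libraries, where Nolc1 gave edgeR adjusted p = 0.0503, 0.133 and 0.0966 and Ncl 0.101, 0.144 and 0.125.

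In the box C/D particle, which places methyl groups on ribosomal RNA, Rrp9 and Nop58 rose. Rrp9 (chromosome 9, 106477309 to 106485415), the subunit found in the U3 particle needed for early cleavage, had 88.8, 109.8 and 147 CPM in stimulated libraries, against 48.8, 42.1 and 47.2 CPM in unstimulated ones. It rose 2.505-fold (log2 1.32 ± 0.21, edgeR adjusted p = 0.00294). Nop58 (chromosome 1, 59684961 to 59711510), a core protein, had 395, 431 and 574 CPM in stimulated libraries, against 274, 245 and 272 CPM in unstimulated libraries. It rose 1.77-fold (log2 0.82 ± 0.20, edgeR adjusted p = 0.0294). Its core partner Nop56 (0.76) and the methyltransferase gene Fbl (0.51), which encodes fibrillarin, were not called. Both had no overlap between the groups. Without stimulated replicate 1 or 2, or unstimulated replicate 1 or 3, Rrp9 was the only call and Nop58 had edgeR adjusted p = 0.276, 0.316, 0.146 and 0.324. Without stimulated replicate 3 or unstimulated replicate 2, 3 of the 4 were called.

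In the box H/ACA particle, which turns uridine into pseudouridine, Dkc1 and Gar1 rose. Dkc1 (chromosome X, 75095854 to 75109776), the pseudouridine synthase dyskerin, had 178, 206 and 272 CPM in stimulated libraries, against 126, 116 and 119.7 CPM in unstimulated ones. Gar1 (chromosome 3, 129824912 to 129831407), a core protein of the particle, had 18.1, 20.4 and 23.6 CPM in stimulated libraries, against 12.1, 13.0 and 11.8 CPM in unstimulated libraries. Dkc1 rose 1.82-fold (log2 0.86 ± 0.20, edgeR adjusted p = 0.0213) and Gar1 1.68-fold (log2 0.75 ± 0.14, edgeR adjusted p = 0.00732), with no overlap for either. The other core proteins, Nhp2 (0.63) and Nop10 (0.39), were not called. No gene of this particle was called without stimulated replicate 1 or 2 or unstimulated replicate 1 or 3, where Dkc1 had edgeR adjusted p = 0.201, 0.280, 0.0827 and 0.269 and Gar1 0.122, 0.232, 0.0643 and 0.174. Without stimulated replicate 3 or unstimulated replicate 2, 3 of the 4 were called.

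Of 16 genes for 40S assembly, 8 rose, none fell and 8 were not called, with a median log2 change of 0.71. Wdr75 (chromosome 1, 45795153 to 45823638), a processome protein that also aids transcription of ribosomal DNA, had 205, 235 and 290.2 CPM in stimulated libraries, against 116, 101 and 107 CPM in unstimulated ones. It rose 2.26-fold (log2 1.18 ± 0.19, edgeR adjusted p = 0.00405). Noc4l (chromosome 5, 110648419 to 110653382), the gene next to Ddx51 in the shared stretch printed above, had 75.1, 91.3 and 132 CPM in stimulated libraries, against 50.4, 48.1 and 51.0 CPM in unstimulated libraries. It rose 1.99-fold (log2 0.996 ± 0.21, edgeR adjusted p = 0.0135), and its binding partner in the processome, Nop14, rose by 0.69 ± 0.19. The processome genes Utp18 (0.92) and Wdr43 (0.84), the helicase gene Ddx10 (0.80), and the late factors Nob1 (0.84), the nuclease that trims the small subunit RNA, and Ltv1 (0.81), which leaves the subunit before it matures, also rose. The 8 genes not called were the processome genes Utp20 (0.73), Wdr3 (0.67), Heatr1 (0.62), Utp15 (0.58) and Wdr36 (0.44), the GTPase gene Bms1 (0.46), its relative Tsr1 (0.67), which occupies late precursors, and Rrp12 (0.55), an export factor. Rrp12 had 110.1, 149 and 207 CPM in stimulated libraries, against 115, 94.3 and 109.1 CPM in unstimulated ones, so the groups overlapped by 1 library. Calls numbered 1, 0 and 13 without stimulated replicate 1, 2 or 3 and 2, 13 and 0 without unstimulated replicate 1, 2 or 3, with 35.6% of all genes called higher without unstimulated replicate 2. Wdr75 kept its call except without stimulated replicate 2 (edgeR adjusted p = 0.0734) or unstimulated replicate 3 (0.0515). Noc4l lost its call without stimulated replicate 1 or 2 (0.0539 and 0.128) or unstimulated replicate 3 (0.0828).

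The 60S assembly genes had the most calls: 14 of 20 rose, none fell and 6 were not called, with a median log2 change of 0.78. Nop16 (chromosome 13, 54584191 to 54590097), an early factor of the large subunit, had 59.6, 74.2 and 102 CPM in stimulated libraries, against 30.3, 25.9 and 30.7 CPM in unstimulated ones. It rose 2.72-fold (log2 1.44 ± 0.21, edgeR adjusted p = 0.00186). Rrs1 (chromosome 1, 9545408 to 9547455), which helps to bring the 5S particle into the large subunit, had 55.5, 62.9 and 95.8 CPM in stimulated libraries, against 28.6, 28.3 and 31.4 CPM in unstimulated libraries. It rose 2.43-fold (log2 1.28 ± 0.21, edgeR adjusted p = 0.00379). Nop2 (1.23), an RNA cytosine methyltransferase whose E-box is printed above, Noc3l (1.22), known from yeast as a factor that moves precursors through the nucleus, Nle1 (1.16), known from yeast as a factor removed late by a motor protein, Rrp1b (1.15), and Grwd1 (1.13), known from yeast as a chaperone of a large subunit protein, rose more than 2-fold, as did Nip7 (1.004). Smaller rises were those of Mrto4 (0.82), which holds the place of the ribosomal stalk, Wdr12 (0.79), a member of the complex with Pes1 and Bop1, the methyltransferase gene Ftsj3 (0.76), Ebna1bp2 (0.71), Brix1 (0.69) and the helicase gene Ddx51 (0.68). Noc2l (0.71), the partner of Noc3l, the helicase genes Ddx18 (0.65), Ddx56 (0.56) and Ddx27 (0.55), and Pes1 (0.62) and Bop1 (0.58) were not called. All 20 had no overlap between the groups. Calls numbered 7, 4 and 18 without stimulated replicate 1, 2 or 3 and 8, 18 and 7 without unstimulated replicate 1, 2 or 3, against the backgrounds given above for these fits. Nop16 and Rrs1 kept their calls in each. Nop2 lost its call only without stimulated replicate 2 (edgeR adjusted p = 0.0535).

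**Figure D3:**
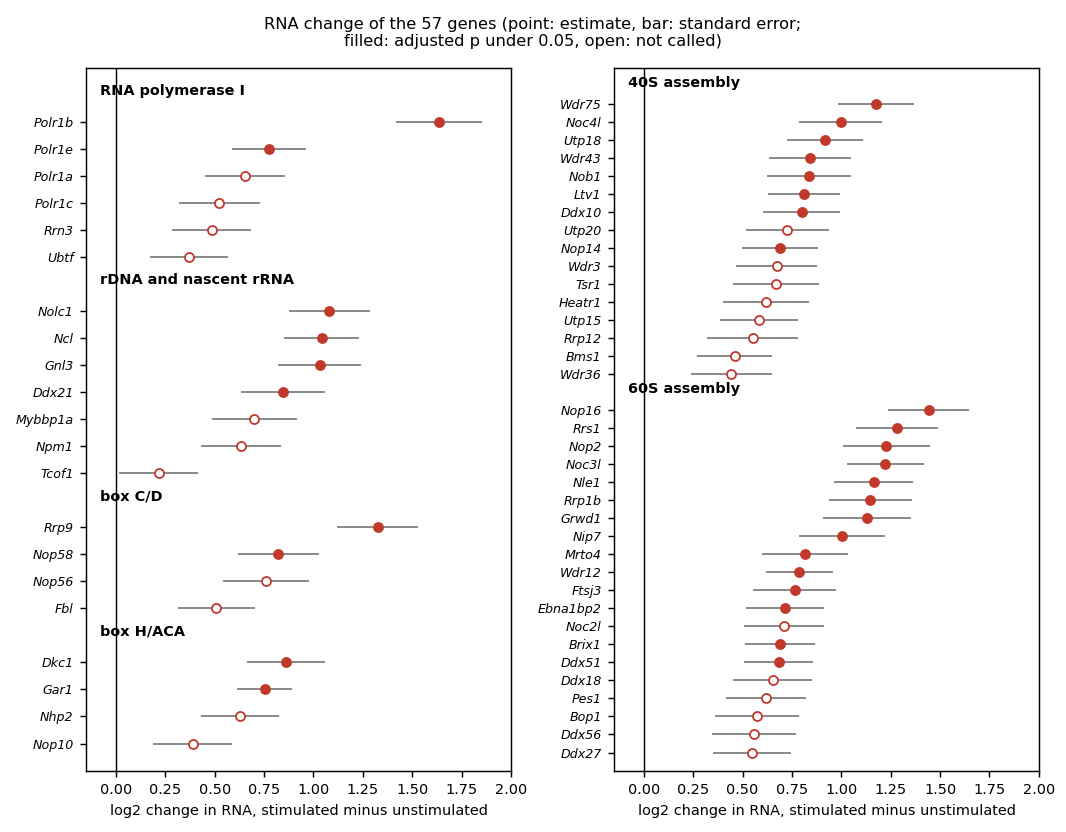
Log2 change in RNA of the 57 genes, stimulated minus unstimulated, by role. Points are edgeR estimates from 3 libraries per group with their standard error, filled where the adjusted p is under 0.05 and open where the gene was not called. Polr1b is at 1.63 and Nop16 at 1.44, Tcof1 is at 0.22, and no role has all its genes filled.

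The span of 13 of the 57 genes in the GRCm38.p6 annotation overlaps another protein-coding gene, and the handling of strands in the counting is not given in the sources used here. The 13 are Polr1e (with Fbxo10), Dkc1 (with Mpp1), Gnl3 (with Glt8d1), Mybbp1a (with Spns2), Nop56 (with Idh3b), Nhp2 (with Rmnd5b), Tsr1 (with Srr), Wdr3 (with Spag17 and Gdap2), Bop1 (with Mroh1 and Scx), Wdr12 (with Carf), Ebna1bp2 (with Cfap57), Ftsj3 (with Ddx42) and Noc2l (with Klhl17 and Samd11). Npm1 has processed copies elsewhere in the genome, and how reads shared with such copies were counted is likewise not given.

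Set against the RNA changes, an E-box was in 6 of 31 windows of genes called higher and in 5 of 19 of genes not called, and the median log2 change was 0.81 with and 0.76 without it. An ETS motif was in 7 of 31 windows of called genes and in 9 of 19 of genes not called, with medians of 0.68 with and 0.83 without it. These differences were not tested.

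Other genes of ribosome biogenesis gave a smaller shift. Of 117 such genes listed from outside the 57, 114 were found and 113 tested. Of these 34 rose, none fell and 79 were not called, with a median log2 change of 0.53. In the same fit 3.58% of all genes tested were called higher and 4.68% lower. The 5 most raised were Ppan (1.39 ± 0.22), Tma16 (1.31 ± 0.17), Dhx33 (1.29 ± 0.19), Bysl (1.09 ± 0.19) and Nifk (1.08 ± 0.21). Bysl was listed under 40S and the others under 60S assembly. Ppan had 152, 194 and 254 CPM in stimulated libraries, against 81.7, 65.0 and 82.7 CPM in unstimulated ones. By listed role, 14 of 47 further 40S genes, 18 of 43 further 60S genes, 2 of 12 exosome genes and none of 11 further genes of RNA polymerase I transcription were called higher. The list gave each gene a single role, and a gene may also act in other steps, so these counts by role are approximate. Calls among the 113 genes ranged from 3 without stimulated replicate 2 (background 1.48%) and 4 without unstimulated replicate 3 (1.55%) to 56 without unstimulated replicate 2 (35.6%). The difference between these genes and the 57 was not tested.

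Footprints of the 57 genes were also a larger part of all footprints in stimulated cells. The genes had 304 and 293 footprints in stimulated libraries (1.46% and 1.24% of the total), against 96, 130 and 144 in unstimulated ones (0.862, 0.892 and 0.945%), and the groups did not overlap. The exact binomial 95% intervals of the shares, which cover counting error only, were 1.30 to 1.63% and 1.10 to 1.39% for the stimulated libraries and 0.699 to 1.05%, 0.746 to 1.06% and 0.797 to 1.11% for the unstimulated ones. Summed footprints were 13128 ± 1314 CPM in stimulated cells (SD, n = 2) and 9169 ± 731 CPM in unstimulated cells (SD, n = 3), 1.43-fold higher (log2 0.52 ± 0.12). The pooled ratio of shares was 1.45, with a counting interval of 1.27 to 1.65. Leaving out any footprint library gave log2 changes of 0.43 to 0.64. Set against the RNA change of 0.76 ± 0.19, the difference of the log2 changes, footprints minus RNA, was -0.24 ± 0.22, about the size of its error, and it was 0.05 without unstimulated RNA replicate 2.

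**Figure D4:**
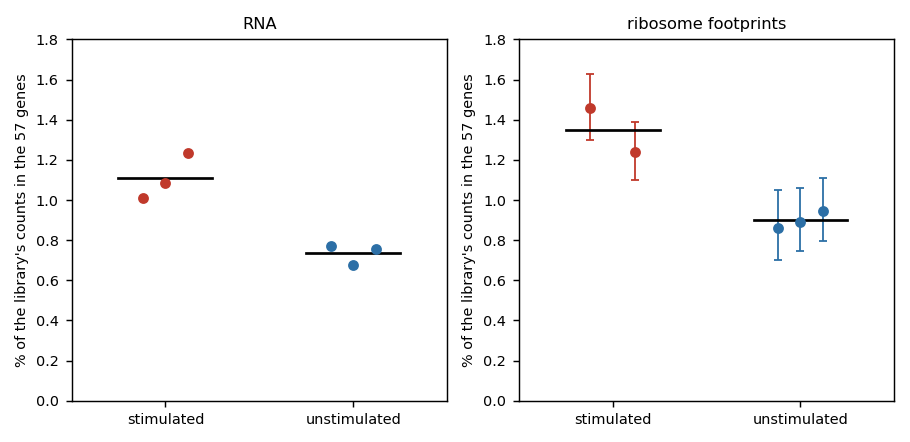
Share of each library's counts in the 57 genes, in percent, for RNA (left) and ribosome footprints (right). Points are libraries, black lines group means, and bars on footprints the 95% binomial interval, which covers counting error only. In both panels every stimulated library, from 1.01% upward in RNA and 1.24% upward in footprints, lies above every unstimulated one.

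By role, mean summed footprints were higher in stimulated cells in 5 groups and near equal in the sixth. The counting intervals given here leave out the spread between libraries. Genes of RNA polymerase I had 18 and 24 footprints in stimulated libraries, against 4, 6 and 9 in unstimulated ones, a pooled ratio of shares of 1.98 (counting interval 1.13 to 3.60). Box H/ACA genes had 15 and 10 in stimulated and 4, 3 and 1 in unstimulated libraries, a ratio of 2.80 (1.22 to 7.18). Their log2 change, 1.64 ± 0.88, was 0.85 without unstimulated footprint replicate 3 and 2.23 without unstimulated replicate 1. The groups nearly met, at 416.35 CPM in stimulated replicate 3 and 416.16 CPM in unstimulated replicate 1. Box C/D genes had 35 and 24 in stimulated and 4, 21 and 8 in unstimulated libraries, a ratio of 1.60 (1.03 to 2.53). In unstimulated replicate 2, 14 of the 21 footprints were in Nop56. The log2 change of the box C/D genes was 0.95 ± 0.64. Their groups overlapped, with 999 CPM in stimulated replicate 3 and 1387 CPM in unstimulated replicate 2. The 40S genes had 92 and 74 footprints in stimulated and 21, 31 and 33 in unstimulated libraries, a ratio of 1.75 (1.34 to 2.30), and their log2 change of 0.79 ± 0.23 stood beside 0.70 ± 0.20 in RNA. The 60S genes had 50 and 53 in stimulated and 29, 28 and 29 in unstimulated libraries, a ratio of 1.07 (0.798 to 1.45). Their log2 change was 0.07 ± 0.24 in footprints and 0.82 ± 0.21 in RNA, and the difference, footprints minus RNA, was -0.76 ± 0.32. The footprint change of the 60S genes was -0.09 without unstimulated footprint replicate 2 and -0.12 without replicate 3, and 0.26 without replicate 1. Their difference from RNA was not tested with RNA libraries left out or with RNA scaled in other ways. For all roles together the same difference was -0.24, and it ranged from -0.33 to 0.05 with single libraries left out. With other scalings it lay between -0.16 and -0.01. The stability of the 60S difference is therefore not known. The genes around the nascent transcript had 94 and 108 footprints in stimulated and 34, 41 and 64 in unstimulated libraries, a ratio of 1.30 (1.04 to 1.63). No test of a difference between roles was made.

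**Figure D5:**
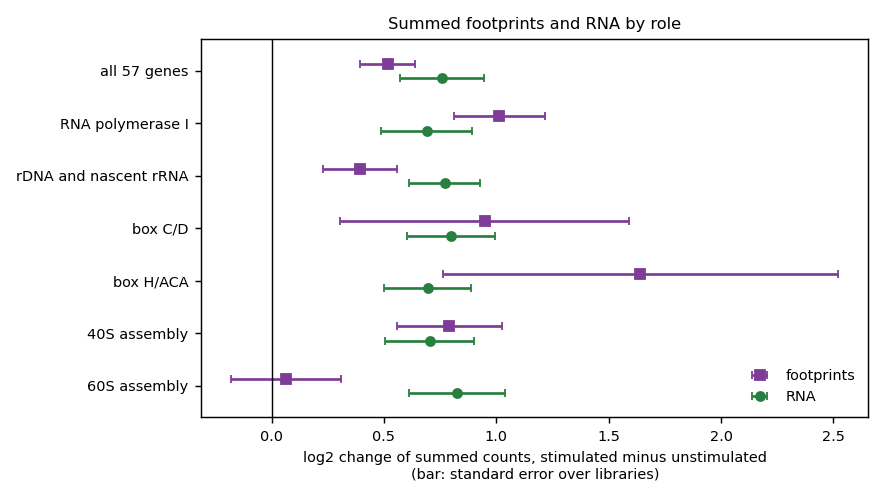
Log2 change of summed counts, stimulated minus unstimulated, for footprints (purple squares) and RNA (green circles), for all 57 genes and by role, with the standard error over libraries (2 and 3 footprint libraries, 3 and 3 RNA libraries). RNA changes lie between 0.69 and 0.82, and footprint changes between 0.07 for 60S assembly and 1.64 for box H/ACA, which was 0.85 without unstimulated footprint replicate 3.

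Single genes were near the limit of the footprint data. Only Ncl, Ddx21 and Mybbp1a passed the filter on low counts, and none was called, in a background of 5.86% of 256 genes tested called higher and 3.52% lower. None of the 3 had an unadjusted p under 0.05 in edgeR's test. Ncl had 30 and 32 footprints (1387 and 1332 CPM) in stimulated libraries, against 13, 19 and 28 (1353, 1255 and 1737 CPM) in unstimulated ones, and the groups overlapped (log2 -0.10 ± 0.38, edgeR adjusted p = 0.913). Ddx21 had 16 and 31 footprints (739.8 and 1291 CPM) in stimulated libraries, against 2, 5 and 15 (208, 330.1 and 931 CPM) in unstimulated ones, with a log2 change of 0.96 ± 0.54 (edgeR adjusted p = 0.307). Mybbp1a had 15 and 17 footprints (694 and 708 CPM) in stimulated libraries, against 8, 4 and 9 (832, 264 and 558 CPM) in unstimulated ones, with a log2 change of 0.41 ± 0.61 (edgeR adjusted p = 0.724). The next most counted genes were not tested: Nolc1, the particle chaperone, had 11 and 15 footprints in stimulated libraries, against 5, 6 and 4 in unstimulated ones. Nop56 had 8 and 13 in stimulated and 2, 14 and 4 in unstimulated libraries. Wdr43 had 9 and 13 in stimulated and 6, 3 and 5 in unstimulated libraries. In these 3 genes the groups overlapped in CPM.

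Among all 57 genes, 23 had fewer than 10 footprints over the 5 libraries and Fbl had none in any. For Fbl the exact Poisson 95% interval reaches 3.69 counts over the 5 libraries together. Mean footprint CPM was higher in stimulated cells for 36 genes. The share of all genes with a higher mean is not given here, so this count has no background. In 10 genes every stimulated library lay above every unstimulated one in CPM, and in 1, Ftsj3, below, against 20.7% and 18.0% of the 256 genes tested, which are genes with more counts. The 10 were Polr1a, Gnl3, Nop58, Nop10, Utp18, Wdr36, Tsr1, Ltv1, Mrto4 and Nop2. Tsr1 had 14 and 12 footprints in stimulated libraries, against 1, 0 and 2 in unstimulated ones, the widest gap among them. Nop2 had 11 and 7 in stimulated and 1, 0 and 1 in unstimulated libraries. With a filter on a mean of 5 counts in either group both could be tested, and neither was called (log2 2.68 ± 0.98, edgeR adjusted p = 0.238 for Tsr1, and 2.68 ± 1.12, adjusted p = 0.327 for Nop2). Both passed that filter only through their stimulated counts and were picked for their gap. The size of these 2 changes is therefore biased upward by the choice.

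The relation of footprints to RNA, the translational efficiency, could be tested for the same 3 genes as the interaction of assay and stimulation over 11 libraries. Of 255 genes tested none was called in either direction (background 0% each), and 28 had an unadjusted p under 0.05. Ncl was among these. Its RNA rose 2.06-fold and its footprint CPM overlapped between the groups, giving a log2 efficiency change of -1.15 ± 0.45 (edgeR adjusted p = 0.208). Its adjusted p ranged from 0.0338, with a filter on the mean count, to 0.596, without stimulated RNA replicate 2, and the change from -1.39 to -0.75. Ncl therefore passed the threshold in 1 of the alternatives and missed it in the others. Ddx21 (0.11 ± 0.54, adjusted p = 0.962) and Mybbp1a (-0.27 ± 0.60, adjusted p = 0.927) were not called, and the sign of each turned when single libraries were left out.

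Over the 5 footprint libraries together, the 57 genes had 967 footprints, where their mean share of RNA counts in the same condition would give 795. With the 4 genes that took up to 25.01% of RNA and at most 0.734% of footprint counts left out of the totals, a choice made after seeing the data, the RNA share would give 943, so the sum of footprints over that expected from RNA was 1.22 or 1.03. The ratio compares a gene with its own RNA, so coding length cancels. Ncl had 122 footprints, against 40.04 from its RNA share and 48.1 without the 4 genes (ratios 3.05 and 2.54). Mybbp1a had 53, against 20.8 and 24.6 (2.55 and 2.16), and Ddx21 had 69, against 41.8 and 49.7 (1.65 and 1.39). These 3 genes have the most footprints of the 57, so ratios above 1 are favoured by how they were chosen. The spread of this ratio over all genes is not given here. Nob1 had 19, against 4.79 and 5.68, and Gar1 had 10, against 1.40 and 1.66, with 8 of the 10 in a single stimulated library. At the other end, Fbl had 0, against 4.35 and 5.13. Npm1 had 7, against 96.2 and 114, with 2 and 2 in stimulated and 1, 0 and 2 in unstimulated libraries. Its RNA was at 1382 ± 247 CPM in stimulated and 891 ± 30.0 CPM in unstimulated cells (SD, n = 3 each). Npm1 has processed copies, and how reads shared with them were counted is not given for either assay. Its low footprint count therefore cannot be read as low translation.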

How the data were processed

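The authors deposited raw counts of reads in the coding sequence of each gene, without normalization, in 6 RNA and 5 footprint libraries. The authors aligned reads with STAR 2.5 to mm10 (GRCm38), per the submitters' processing notes. The counting tool, annotation release, strand handling and read filters are not given in the sources used here. The table of the whole series held the same 241527 values as the single files. Of 21957 identifiers, 21838 had a symbol in the NCBI gene table.

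Each assay was fitted over all its genes by edgeR 4.0.16 (R 4.3.3) and its two-sided quasi-likelihood F test, with TMM factors and filterByExpr at a minimum count of 10 and a minimum total of 15. p-values were adjusted by Benjamini-Hochberg over all genes tested, with a threshold of 0.05. The efficiency test was the interaction of assay and stimulation. Summed counts per library were compared with no test. A log2 change of a sum is the difference of group mean log2 CPM. Scripts were tested on simulated data with up to 200 changed genes. Alternatives were other scalings (RLE, library totals, genes of at least 10 CPM, leaving out 4 genes), other filters (none, a mean of 50 counts in RNA and 5 in footprints), DESeq2 1.42.0, limma voom (3.58.1), an adjusted p of 0.01, a replicate block and each library left out. Leaving out 3 libraries at once was chosen after seeing the data. No 2 libraries of the same assay and condition agreed within sampling noise.

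The 57 genes, their roles, the other gene lists, tests and alternatives were chosen with earlier results of these data known. All 57 may be named. RNA values of every library are given for the 2 called genes with the largest rise in each role, and footprint values for the 6 genes with the most footprints and for all that passed the filter. Choosing the most abundant gene of a role by counts per kb was not possible without coding lengths. Values of other genes, such as Tcof1, Rrp12, Tsr1, Nop2, Npm1, Nob1 and Gar1, were chosen after they were seen. Motifs were searched in RefSeq promoter windows.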

Additional observations from a re-analysis of the deposited data

How the results depend on the processing

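The number of the 57 genes called higher in RNA, 32 as reported, was 11 with RLE scaling, 46 with library totals, 57 when scaled on, or tested in, only genes of at least 10 CPM, 18 without Gm10800, Gm10801, Gm20594 and Lars2, 14 without a filter, 56 with a filter on the mean count, 14 with DESeq2, 45 with limma voom, 13 at an adjusted p of 0.01, 6 to 46 with 1 library left out and 56 without 3 libraries. The shares of all genes tested called higher in the same order were 1.77, 5.32, 16.7 (scaled) and 36.9 (tested), 2.79, 1.91, 18.1, 3.20, 9.89, 1.73, 1.48 to 35.6 and 10.8%. The cause was not tested. None was called lower in any of these. For the 113 other genes, 34 as reported, the counts in the same order were 5, 57, 100 (scaled) and 101 (tested), 21, 11, 88, 9, 53, 9, 3 to 56 and 77. Over RNA scalings the median change of all genes tested moved between 0.19 and 0.50.

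With replicate number as a block, 35 of the 57 were called, with 6.54% of all genes called higher, against 3.58% without the block. Deviations of stimulated and unstimulated libraries correlated by -0.82 for number 1, 0.66 for number 2 and 0.84 for number 3. Unlike numbers correlated as strongly, such as 0.87 for stimulated 1 with unstimulated 2 and -0.91 for stimulated 3 with unstimulated 2. These values therefore cannot show whether the numbers pair the samples.

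The median change in RNA (0.75) was 0.44 to 0.73 and the change of summed RNA (0.76) 0.47 to 0.79 with 1 library left out. Summed footprints gave 0.74, in place of 0.52, scaled on genes of at least 10 CPM. The efficiency of the sums (-0.24) ranged from -0.33 to 0.051 with 1 library left out. One gene, Ncl, was called for efficiency with the filter on the mean count (-1.39, edgeR adjusted p = 0.0338). Directions turned for Tcof1 in RNA (-0.013 with RLE scaling, -0.11 with DESeq2, -0.10 without unstimulated replicate 2), Ncl in footprints (0.10 scaled on genes of at least 10 CPM, 0.17 without a filter, 0.011 without unstimulated replicate 3, with a range of -0.26 to 0.011 over left-out libraries), Mybbp1a in efficiency (0.18 without a filter, 0.061 without unstimulated RNA replicate 2, 0.003 without unstimulated footprint replicate 1, range -0.68 to 0.061) and Ddx21 in efficiency (-0.14 with the filter on the mean count, -0.36, -0.22 and -0.23 without stimulated footprint replicate 3 or unstimulated replicate 1 or 2, range -0.36 to 0.96). None of these was past the threshold. Footprint depth, at most 23641 counts a library, left 54 of the 57 genes untested in footprints.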
